A study of Mus musculus with 6 samples.

Results

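Htatip2, Bcam and Gm31597 are 3 genes of mouse chromosome 7 whose RNA was near 0 in Th17-differentiated CD4 T cells of SLE1.2.3 mice and present in those of Control mice. They were chosen by name, out of 33300 features measured, for this contrast: each was expressed in every Control library and close to 0 in every SLE1.2.3 library. Their difference between the groups is therefore given as a description, with no test. The genes lying within 500 kb of them, taken by coordinate, serve as context.

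The series holds 6 libraries, 3 from SLE1.2.3 mice and 3 from Control mice, whose genotype is labelled WT. Mice called SLE1.2.3 are a lupus-prone strain built by combining the Sle1, Sle2 and Sle3 susceptibility intervals, the last of them on chromosome 7. The sources used here give neither the borders of the intervals nor the strain of the WT mice, so the interval cannot be told apart from other differences between the mice. All mice were female and matched for age, with the age itself not stated. Naive CD4 T cells were stimulated on plates coated with antibodies to CD3 and CD28 for 5 days, with TGF-β1, IL-6, IL-1β, IL-23 and blocking antibodies to IL-4 and to interferon-γ. All 6 cultures received the same treatment.

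Htatip2 encodes TIP30, also called CC3, a protein of the short-chain dehydrogenase/reductase fold that was first described in human cells as a cofactor of the HIV Tat protein. It binds importin β, a carrier of proteins into the nucleus, and helps to bring the vacuolar ATPase, a proton pump, to endosomes that hold internalised growth factor receptors. Bcam encodes the basal cell adhesion molecule, known in humans as the Lutheran blood group antigen, an immunoglobulin superfamily receptor for the laminin α5 chain. Gm31597 is annotated as a long noncoding RNA on the strand opposite to Sult2b1.

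In the GENCODE M21 annotation of mm10, Htatip2 (ENSMUSG00000039745.8) lies on the plus strand at chr7:49759115-49773975, with 3 transcripts and 6 merged exons of 2024 bases in all, and no other gene overlaps it. Bcam (ENSMUSG00000002980.14) lies on the minus strand at chr7:19756131-19771016, with 5 transcripts and 17 merged exons of 3199 bases. It overlaps the small genes Gm45114 and Gm26600, which share 52 exon bases with it. Gm31597 (ENSMUSG00000109602.1) lies on the plus strand at chr7:45742049-45750257, with 1 transcript of 3 exons and 515 bases, inside Sult2b1 and sharing 78 exon bases with it. The 3 genes are not a cluster: Gm31597 and Htatip2 are 4.01 Mb apart, Bcam and Gm31597 25.97 Mb, and Bcam and Htatip2 29.99 Mb. For none of the 3 was another gene found with a transcript stretch of at least 100 bases at 90% identity or more.

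The promoters of Htatip2 and Bcam are shown because these are the 2 protein-coding genes among the members, with RNA only in traces in SLE1.2.3 cells. The sequences are the reference ones, from RefSeq on GRCm38.p6, 250 bases before to 50 bases after the annotated start, and 2 of the 3 genes matched an entry. Capitals mark the motifs searched on both strands: the GC box GGGCGG, the KLF-type box GGGCGTGG, the ETS core CCGGAAG, the CCAAT box, the TATA box TATAAA and the E box CACGTG. The motifs were chosen with the sequences in view. The first Htatip2 entry spans chr7:49758856-49759155 on the plus strand and the Bcam entry spans chr7:19770483-19770782 on the minus strand. The Bcam window lies wholly inside the GENCODE span of Bcam, chr7:19756131-19771016, so its RefSeq start differs from the outermost GENCODE start.
Htatip2: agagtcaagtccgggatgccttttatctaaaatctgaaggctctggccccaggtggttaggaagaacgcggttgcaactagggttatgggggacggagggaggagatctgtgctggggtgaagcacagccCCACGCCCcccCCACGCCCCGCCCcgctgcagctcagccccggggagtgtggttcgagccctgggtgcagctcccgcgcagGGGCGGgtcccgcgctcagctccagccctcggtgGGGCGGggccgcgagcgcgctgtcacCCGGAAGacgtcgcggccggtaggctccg
Bcam: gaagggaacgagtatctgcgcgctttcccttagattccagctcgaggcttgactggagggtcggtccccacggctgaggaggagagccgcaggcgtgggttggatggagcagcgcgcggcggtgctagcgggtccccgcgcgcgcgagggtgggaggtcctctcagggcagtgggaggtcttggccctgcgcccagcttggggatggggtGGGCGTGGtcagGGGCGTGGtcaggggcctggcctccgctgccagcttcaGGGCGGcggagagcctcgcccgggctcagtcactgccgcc

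Both windows are rich in CpG. The Htatip2 window has a GC content of 69.0% and the Bcam window of 71.0%, against a median of 52.7% over 32851 promoter entries, and each holds 27 CpG, against a median of 7. The Htatip2 window holds 3 GC boxes, 2 KLF-type boxes and 1 ETS core, with a KLF-type box and a GC box that overlap. The Bcam window holds 1 GC box and 2 KLF-type boxes. Among all promoter entries 35.7% hold a GC box, 5.33% a KLF-type box and 8.86% this ETS core. Neither window holds a CCAAT box, a TATA box or an E box, which 37.4%, 13.6% and 7.15% of the entries hold. The second Htatip2 entry, chr7:49759262-49759561, is not shown and differs: it has a GC content of 61%, 8 CpG and 1 CCAAT box. It holds no GC box, KLF-type box or ETS core. A match describes letters in the reference sequence and says nothing of what binds there in these cells.

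The values are FPKM, reads per kilobase of gene and per 1000000 assigned reads, computed by the authors. The number of assigned reads, recovered from the steps of the low values and given in units of 1000000, was 83.5, 61.7 and 75.1 in SLE1.2.3 mice 1, 2 and 3 and 50.3, 56.8 and 29.7 in Control mice 1, 2 and 3. Each SLE1.2.3 library was thus deeper than each Control library. A count of 0 allowed up to 3 reads, or 0.0359 to 0.101 per 1000000 over the 6 libraries. Control mouse 3 stood apart with 2.18% of its reads in ribosomal RNA, against 0.0286% to 0.0683% in the others. The RNA of markers of other lymphocytes was also higher in the SLE1.2.3 libraries: the summed level of 9 γδ and NKT cell markers was 55.6, 254 and 569 FPKM in SLE1.2.3 mice 1, 2 and 3 and 2.88 to 3.16 FPKM in Control mice. Of its 8 tested markers 7 rose, where 9.65% of all 11378 tested genes did, and none of the 9 was at 0 in all libraries of a group. The summed level of 11 CD4 T and Th17 markers was 3233, 3462 and 3221 FPKM in SLE1.2.3 mice and 1480 to 2162 FPKM in Control mice, so markers of the labelled cell type were present in each library. Of 4 tested B cell markers 3 rose, and the list of 8 summed to 127 to 184 FPKM in SLE1.2.3 mice and 56.2 to 63.3 FPKM in Control mice. Cd4 itself, which defines the starting cells, had 257, 144 and 71.6 FPKM in SLE1.2.3 mice and 246 to 264 FPKM in Control mice. Cd28 followed the same order, with 110, 67.3 and 40.7 FPKM in SLE1.2.3 mice and 101 to 112 FPKM in Control mice. So did Cd5, with 84.5, 45.2 and 35.1 FPKM against 76.3 to 81.3 FPKM. Cd3e and Cd3g showed no such fall. The CD4 T and Th17 sum hides this, because Il17a alone had 1676, 2275 and 2135 FPKM in SLE1.2.3 mice and 394 to 801 FPKM in Control mice.

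Htatip2 had 0.047, 0.112 and 0.27 FPKM in SLE1.2.3 mice 1, 2 and 3, which are 8, 14 and 41 reads. In Control mice 1, 2 and 3 it had 12.6, 14.5 and 13.6 FPKM, or 1287, 1662 and 817 reads. The groups did not overlap, and the highest SLE1.2.3 value was 2.14% of the lowest Control value. The means were 0.143 ± 0.115 FPKM in SLE1.2.3 cells and 13.6 ± 0.913 FPKM in those of Control mice (SD, n = 3 each), with a difference of -3.67 in log2(FPKM + 1). Per assigned read, SLE1.2.3 cells held 1.04% of the Control level (95% exact interval 0.797% to 1.33%, counting error only). In Control cells its level was above that of 66.8% of the 11378 tested genes, with a coefficient of variation of 6.74% among mice, against a median of 6.27% for 4148 tested genes within 2-fold of its level.

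Bcam had 0.288, 0.076 and 0.021 FPKM in SLE1.2.3 mice 1, 2 and 3, from 77, 15 and 5 reads. Control mice 1, 2 and 3 had 8.99, 8.85 and 8.40 FPKM, from 1448, 1607 and 799 reads. Again no SLE1.2.3 library came near a Control library, the highest being 3.43% of the lowest Control value. The means were 0.128 ± 0.141 FPKM in SLE1.2.3 cells and 8.75 ± 0.308 FPKM in those of Control mice (SD, n = 3 each), with a difference of -3.12 in log2(FPKM + 1). Per assigned read the SLE1.2.3 level was 1.56% of the Control level (95% exact interval 1.27% to 1.91%). In Control cells Bcam stood above 53.7% of the tested genes and varied by 3.52% among mice, against a median of 6.58% for 4492 genes of like level. Of the overlapping genes, Gm26600 had 0 reads in every library, and Gm45114 had 0 reads in SLE1.2.3 libraries and 11 in Control libraries together. Bcam is well known from red cells, epithelium and endothelium. The summed level of 6 red cell markers was 0.322 to 0.512 FPKM in SLE1.2.3 mice and 0.139 to 0.211 FPKM in Control mice, with Hba-a2 at 0 in all Control libraries. The 7 epithelial and endothelial markers summed to 25.01 to 42.6 FPKM in SLE1.2.3 mice and 16.2 to 23.1 FPKM in Control mice, with Krt8 at 0 in all 6 libraries. Most of that sum was Pecam1, an adhesion gene also found on lymphocytes, with 21.6, 33.8 and 39.3 FPKM in SLE1.2.3 mice and 14.5, 18.9 and 20.7 FPKM in Control mice. Epcam had no more than 0.12 FPKM in SLE1.2.3 mice and 0.184 FPKM in Control mice.

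Gm31597 had 1, 1 and 0 reads in SLE1.2.3 mice 1, 2 and 3, listed as 0.023, 0.031 and 0 FPKM. The count of 0 in mouse 3 allows a level of up to 0.0775 FPKM. Control mice 1, 2 and 3 had 99, 136 and 87 reads, or 3.82, 4.65 and 5.68 FPKM. The means were 0.018 ± 0.0161 FPKM in SLE1.2.3 cells and 4.72 ± 0.933 FPKM in those of Control mice (SD, n = 3 each), with a difference of -2.48 in log2(FPKM + 1). Over each group together there were 2 reads in SLE1.2.3 cells and 322 in Control cells, which puts the SLE1.2.3 level at 0.386% of the Control level with a wide exact interval of 0.0465% to 1.41%. This was the lowest and the most variable of the 3 genes in Control cells, with a coefficient of variation of 19.8% among mice against a median of 7.53% for 4222 genes of like level. The host gene on the other strand, Sult2b1, a steroid sulfotransferase, did not share the pattern: it had 0.592, 0.64 and 0.408 FPKM in SLE1.2.3 mice and 0.392, 0.481 and 0.613 FPKM in Control mice, so the groups overlapped. The sources used here do not give the strand setting of the authors' counting, so reads on the shared bases cannot be assigned to a strand.

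**Figure D1:**
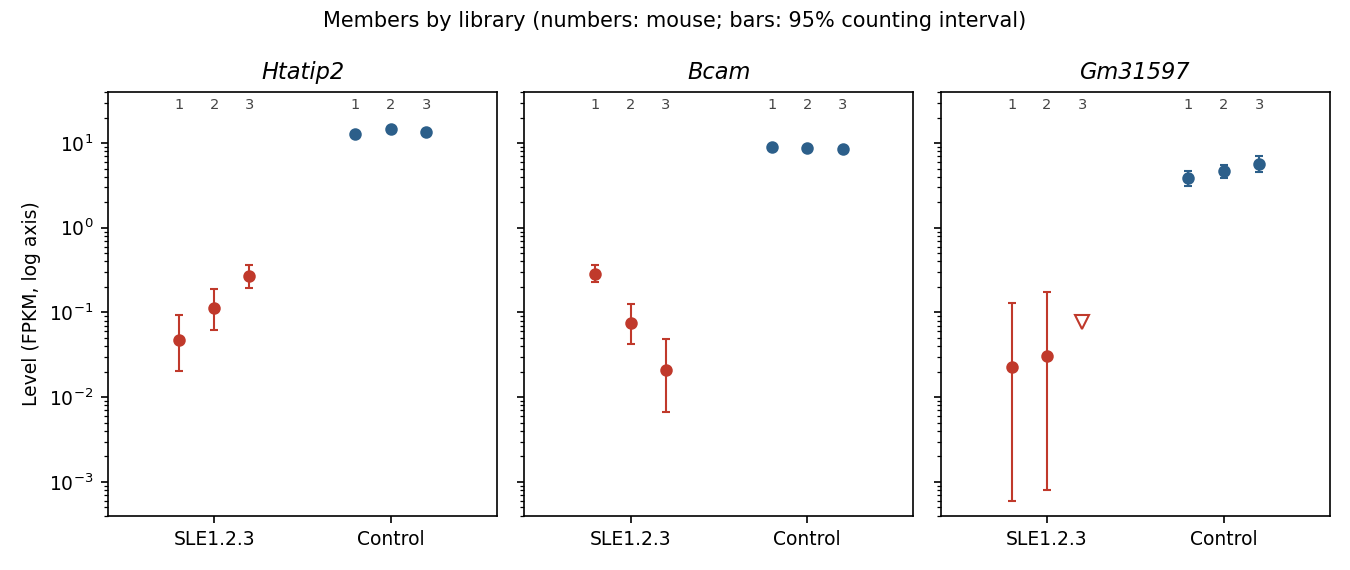
The level of Htatip2, Bcam and Gm31597 in each library (FPKM, log axis), with SLE1.2.3 on the left and Control on the right of each panel, the mouse number above each point and 95% counting intervals as bars. The open triangle is the limit of 0.0775 FPKM that a count of 0 allows for Gm31597 in SLE1.2.3 mouse 3. The highest SLE1.2.3 point is Bcam in mouse 1 at 0.288 FPKM and the lowest Control point is Gm31597 in mouse 1 at 3.82 FPKM.

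On the scale of raw levels the order in Control cells was Htatip2, then Bcam, then Gm31597, with no overlap between neighbours in that order, and FPKM corrects for length. In SLE1.2.3 cells the levels of Htatip2 and Bcam overlapped, with Bcam the higher in mouse 1 and Htatip2 in mice 2 and 3. The Htatip2 residue was largest in SLE1.2.3 mouse 3, where its counting interval of 0.194 to 0.366 FPKM lay above that of mouse 1, 0.0204 to 0.0933 FPKM. The Bcam residue ran the other way, with 0.228 to 0.360 FPKM in mouse 1 and 0.00676 to 0.0486 FPKM in mouse 3. SLE1.2.3 mouse 3, with the largest Htatip2 residue, also had the highest γδ and NKT marker sum, and SLE1.2.3 mouse 1, with the largest Bcam residue, had the highest Cd4 level of the SLE1.2.3 mice. In bulk RNA, fewer cells of a type and less RNA per cell cannot be told apart, and the part of these markers in the residues was not tested. In SLE1.2.3 mouse 1, whose Cd4 level lay within the Control range, the log2(FPKM + 1) difference from Control mice was -3.80 for Htatip2, -2.92 for Bcam and -2.47 for Gm31597 (1 SLE1.2.3 library, so no spread).

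All 3 genes passed the filter of a mean of 1 FPKM over the 6 libraries through the Control libraries alone. The share of tested genes whose SLE1.2.3 values all lay below their Control values was 17.7%, and for the 3 genes this order was part of how they were chosen. Among 10740 features with at least 1 FPKM in every Control library, 5, or 0.0466%, had a highest SLE1.2.3 value of no more than 5% of the lowest Control value. They were Htatip2, Bcam and Gm31597, which were chosen for this pattern on chromosome 7, and besides them Eps8l1 on chromosome 7 and Hist1h4m on chromosome 13. The values nearest the limit of 5% were 3.43% for Bcam on the inside and 5.92% for Ccn3, a matricellular protein gene of chromosome 15, on the outside.

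Eps8l1, which encodes a relative of the actin regulator EPS8, was the gene most like the members by the ratio of highest SLE1.2.3 to lowest Control value, with 0.1 FPKM added to each, over the 6 libraries. It lies at chr7:4460674-4480487 and had 0.022, 0.013 and 0.024 FPKM in SLE1.2.3 mice and 2.59, 2.12 and 3.51 FPKM in Control mice, from 27 and 2143 reads in all. Hist1h4m, a histone H4 gene of chromosome 13, had 0 reads in SLE1.2.3 libraries and 106 in Control libraries, but 10 other genes, nearly all histone H4 copies, share long stretches with it, so its reads are uncertain. Among the next in order were Ccn3, Tceanc2, Mir7682, Plk2, Ntrk3, Slamf7 and Cpm. Of these, Ntrk3, a neurotrophin receptor gene, lies on chromosome 7, at 0.149, 0.141 and 0.11 FPKM in SLE1.2.3 mice and 1.32, 1.35 and 1.15 FPKM in Control mice. The likeness is of pattern alone.

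The mirror pattern, near 0 in Control cells, was held by 45 of 10687 features (0.421%) with at least 1 FPKM in every SLE1.2.3 library. Of these 35 were immunoglobulin or T cell receptor segments, and 1, the pseudogene Usf2-ps1, lay on chromosome 7. Usf2-ps1 had 7.63, 7.09 and 5.99 FPKM in SLE1.2.3 mice and 0 in each Control mouse. The 10 features with the most extreme mirror pattern were Ftl2-ps, Ighg2c, Usf2-ps1, Trdv4, Gm6394, Igkc, Ndufs5-ps, Trgj1, Igkv3-2 and Ighg3.

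**Figure D2:**
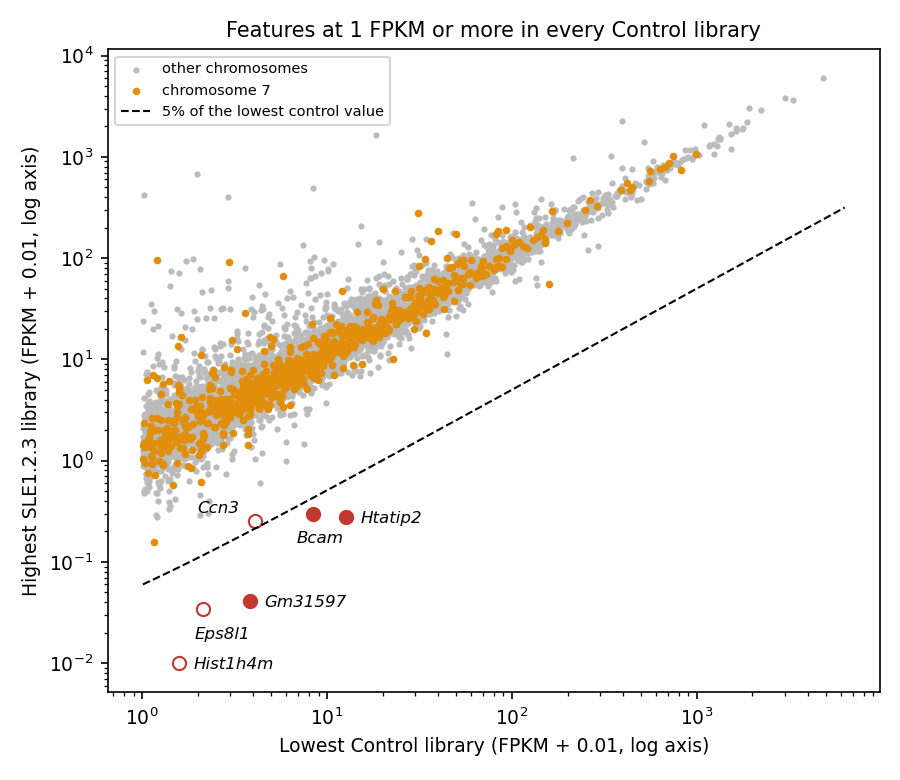
The highest SLE1.2.3 value against the lowest Control value for the 10740 features at 1 FPKM or more in every Control library (FPKM + 0.01, log axes), with chromosome 7 in orange and the dashed line at 5% of the Control value. Filled red points are Htatip2, Bcam and Gm31597 and open red points are Eps8l1, Hist1h4m and Ccn3. The 5 features below the line stand apart from the main cloud, and Ccn3 sits just above it.

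Some genes too low for the test had the same pattern. With the limit lowered to 0.1 FPKM and 20 reads in every Control library, a limit chosen after the values were seen, 11 of 12684 features (0.0867%) had it. The 3 members among them were chosen for this pattern on chromosome 7. Without the members, 4 of 988 features on chromosome 7 had it, and 4 of 11693 elsewhere did, under a limit set with the values in view. Besides the members and Eps8l1, those on chromosome 7 were Sbsn, Zfp976 and Nav2. Sbsn, the epithelial secreted protein suprabasin, had 9 reads in SLE1.2.3 cells and 308 in Control cells. Zfp976, a zinc finger gene, had 8 reads in SLE1.2.3 cells and 418 in Control cells. The 7 genes span chr7:4460674-49773975, with genes at ordinary levels between them.

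Nav2 is the closest of them to a member. It encodes neuron navigator 2 and ends 149 kb before Htatip2, with 0.001, 0.002 and 0.004 FPKM in SLE1.2.3 mice and 0.271, 0.286 and 0.486 FPKM in Control mice. That is 17 reads in SLE1.2.3 cells and 1429 in Control cells, each uncertain by more than a read because the values have 3 decimals and the gene is long. Its highest SLE1.2.3 value was 1.48% of its lowest Control value, where that of Htatip2 was 2.14%. With no filter on low values, Nav2 differed by -0.42 in log2(FPKM + 1) with a limma adjusted p of 0.039. Nav2 was named after these values were seen, so this p-value adds no support to the pattern.

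On its other side Htatip2 has Prmt3, a protein arginine methyltransferase gene that starts only 4.37 kb away. Prmt3 had 3.79, 4.73 and 5.23 FPKM in SLE1.2.3 mice and 6.11, 4.84 and 5.45 FPKM in Control mice. The groups overlapped and Prmt3 did not pass the test (log2 difference -0.22 ± 0.12 SE, limma unadjusted p = 0.129 and adjusted p = 0.262). The nearest tested gene before Htatip2 is the cell cycle factor gene E2f8, 878 kb away, which did not pass either (log2 difference -0.37 ± 0.14 SE, limma adjusted p = 0.127). E2f8 had 5.6, 6.3 and 8.8 FPKM in SLE1.2.3 mice and 9.1, 8.9 and 9.1 FPKM in Control mice. Unlike in Prmt3, the groups did not overlap, an order that 17.7% of all tested genes had.

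Bcam lies between genes that both groups expressed. Tomm40, the pore of the mitochondrial import channel, ends 40.7 kb before it in coordinate and had 16.3, 16.4 and 16.9 FPKM in SLE1.2.3 mice and 23.5, 18.5 and 19.9 FPKM in Control mice. It missed the threshold (log2 difference -0.30 ± 0.09 SE, limma adjusted p = 0.074). Bcl3, an atypical IκB protein gene 37.4 kb after Bcam, had 71.2, 97.7 and 99.9 FPKM in SLE1.2.3 mice and 45.2, 46.6 and 44.7 FPKM in Control mice. Bcl3 rose (log2 difference 0.95 ± 0.14 SE, limma adjusted p = 0.012), opposite in direction to Bcam.

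Nectin2, an immunoglobulin superfamily adhesion gene, is closer still, 5.65 kb from Bcam on the same strand, and was below the filter. It had 0.158, 0.167 and 0.03 FPKM in SLE1.2.3 mice and 0.671, 0.897 and 0.693 FPKM in Control mice, with 90 and 368 reads in all. Its highest SLE1.2.3 value was 24.9% of the lowest Control value, where that of Bcam was 3.43%. Fitted with no filter, Nectin2 differed by -0.65 (limma adjusted p = 0.030). Because the gene was picked with its values in view, this p-value is a description only.

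Around Gm31597 the nearest tested genes were Rpl18, a ribosomal protein gene 21.2 kb before it, and Lmtk3, a kinase gene 33.5 kb after it. Rpl18 had 298, 249 and 196 FPKM in SLE1.2.3 mice and 270, 266 and 249 FPKM in Control mice. Lmtk3 had 3.19, 1.37 and 1.25 FPKM in SLE1.2.3 mice and 3.27, 3.28 and 2.58 FPKM in Control mice. In both genes the groups overlapped, and neither passed (limma adjusted p = 0.681 and 0.193).

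Of 132 features within 500 kb of a member, 53 were tested and 17 passed a limma adjusted p of 0.05, with SLE1.2.3 cells higher in 11 and lower in 6. That is 32.1% of those tested, where 15.2% of all 11378 tested genes passed, 9.65% higher and 5.58% lower. Chromosome 7 as a whole gave 189 of 838, or 22.6%, and among its 5 Mb bins that held 10 or more tested genes and no member, 22 in all, the share ran from 0% to 40% with a median of 18.3%. The median log2 difference of the 53 neighbours was -0.01, against 0.01 for all tested genes. Near Bcam 10 of 29 passed and near Gm31597 7 of 23, while near Htatip2 the 1 tested gene did not. The count of 17 depended on single libraries: it was 1 without SLE1.2.3 mouse 2, 6 without Control mouse 1, 2 without Control mouse 2 and 2 without Control mouse 3. Ftl1 passed in each of these.

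Near Bcam the genes that rose were Vasp, Bcl3, Ceacam16, Ppp1r37, Opa3, Gm16175 and 1700058P15Rik, with log2 differences from 0.31 in Ppp1r37 to 1.35 in Gm16175. Gm16175 lies within Bcl3 and 1700058P15Rik overlaps Vasp, so these reads cannot be told apart without a stated strand. Vasp, which promotes actin filament growth, had 150, 176 and 188 FPKM in SLE1.2.3 mice and 104, 97.7 and 93.0 FPKM in Control mice (log2 difference 0.79 ± 0.10 SE, limma adjusted p = 0.0095). Those that fell were Pvr, Gm16184 and Ercc2. Pvr, a nectin-like receptor bound by CD96 and CD226, had 5.64, 4.38 and 3.19 FPKM in SLE1.2.3 mice and 7.70, 8.49 and 7.50 FPKM in Control mice (log2 difference -0.74 ± 0.17 SE, limma adjusted p = 0.035), and Gm16184 lies within it.

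Near Gm31597, Ntf5, Dhdh, Emp3 and Cyth2 rose, with log2 differences from 0.37 in Cyth2 to 1.04 in Ntf5, and Ftl1, Bcat2 and Ruvbl2 fell. Ftl1, the ferritin light chain gene, had the largest difference of the 17: it had 54.5, 55.0 and 52.5 FPKM in SLE1.2.3 mice and 171, 177 and 159 FPKM in Control mice (log2 difference -1.63 ± 0.07 SE, limma adjusted p = 0.00026). Its copy Ftl2-ps on chromosome 4 was at 199 to 223 FPKM in SLE1.2.3 mice and 0 to 0.061 FPKM in Control mice, so reads may be split between them and the Ftl1 value is uncertain. On the log2(FPKM + 1) scale each of the 53 tested neighbours had a smaller difference than the member it lies beside. The members were chosen for a large difference, so this order was largely set by the choice. It does not show how far the pattern extends. The tested set also leaves out low genes such as Nav2, whose highest SLE1.2.3 value was 1.48% of its lowest Control value.

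**Figure D3:**
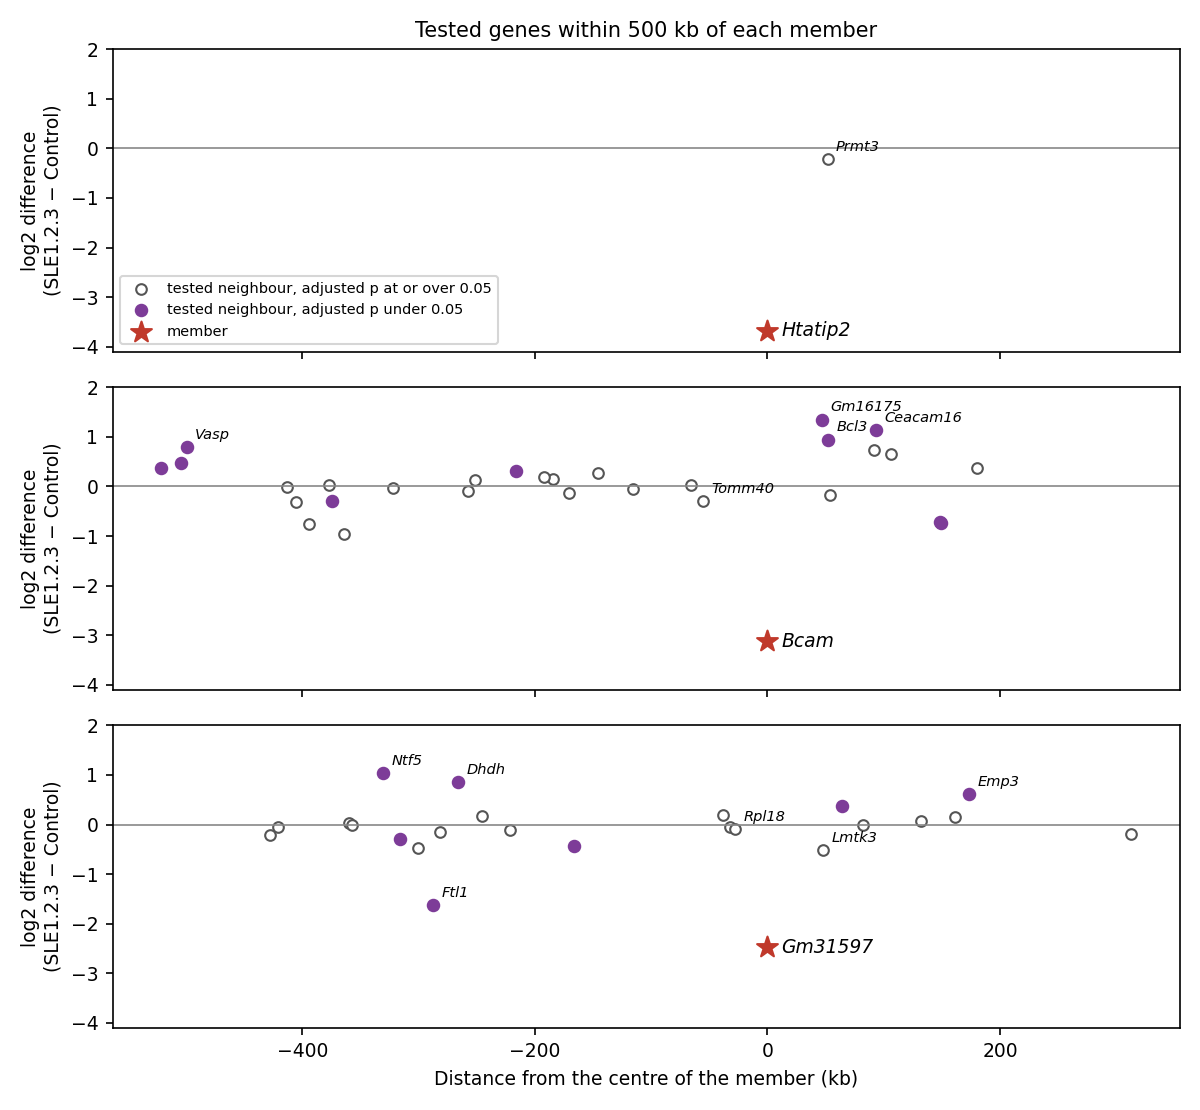
The log2(FPKM + 1) difference of SLE1.2.3 minus Control for each tested gene within 500 kb of Htatip2, Bcam and Gm31597, against the distance between gene centres in kb. Stars are the members, filled circles the 17 neighbours with an adjusted p under 0.05 and open circles the others. The stars lie at -3.67, -3.12 and -2.48, below every neighbour in their panels, and neighbours lie on both sides of 0. The members were chosen for this difference, and genes below the filter, such as Nav2, are not drawn.

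Lists of genes known to act with the members were then read in the same fit. Of 23 tested partners and reported targets of TIP30, 2 rose and 1 fell, against 15.2% of all tested genes, with a median log2 difference of 0.05. Spp1, the osteopontin gene, had 11.03, 34.5 and 51.0 FPKM in SLE1.2.3 mice and 3.91, 2.97 and 2.92 FPKM in Control mice (log2 difference 2.73 ± 0.51 SE, limma adjusted p = 0.023). Bad, a pro-death BCL2 family gene, rose by 0.30 and Ets1, a lymphocyte transcription factor gene, fell by 0.48 on the log2 scale. Kpnb1, the importin β that TIP30 binds, had 71.7, 79.1 and 89.6 FPKM in SLE1.2.3 mice and 90.5, 81.4 and 89.4 FPKM in Control mice, with overlap and no call (limma adjusted p = 0.406).

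Of 20 importins and other nuclear transport genes, 0 rose and 1, the importin gene Ipo5, fell (5.00%, against 15.2% of all tested genes; median -0.12). Of 15 tested vacuolar ATPase subunits 0 passed with limma on FPKM, with a median of 0.06. 3 of the 15 had an unadjusted p under 0.05 and 0 passed with limma voom.

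For Bcam, 14 of 23 listed partners, laminins and laminin receptors were tested, of which 1 rose and 2 fell (21.4%, against 15.2% of all tested genes; median -0.19). Lama5, the laminin α5 chain that Bcam binds, had 7.66, 2.20 and 0.958 FPKM in SLE1.2.3 mice and 20.3, 14.4 and 16.4 FPKM in Control mice (log2 difference -2.24 ± 0.52 SE, limma adjusted p = 0.037). Lama5 was lowest in SLE1.2.3 mouse 3, as Bcam was, but so were Cd4 and Pvr, and a link between Lama5 and Bcam was not tested. Itga6, a laminin-binding integrin chain, fell by 1.12 on the log2 scale, at 3.37, 2.20 and 1.43 FPKM in SLE1.2.3 mice and 5.52, 5.66 and 7.03 FPKM in Control mice. Itga4, the integrin α4 chain, which human BCAM has also been reported to bind, rose by a log2 difference of 1.36 ± 0.22 SE (limma adjusted p = 0.016).

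Of 11 tested immunoglobulin superfamily adhesion genes related to Bcam, 4 rose and 1 fell (45.5%, against 15.2% of all tested genes; median 0.36). Alcam, among the closest relatives of Bcam, had 12.8, 13.1 and 14.2 FPKM in SLE1.2.3 mice and 8.34, 8.22 and 7.96 FPKM in Control mice (log2 difference 0.65 ± 0.06 SE, limma adjusted p = 0.0053). L1cam rose by 0.53, Icam1 by 1.12 and Cd96 by 1.94 on the log2 scale, and Pvr fell as given above. 0 of the 11 had the near-0 pattern of Bcam, which only 0.0466% of the 10740 features above had, so this count says little about these genes. Spp1, Icam1, Itga4 and Cd96 were highest in SLE1.2.3 mouse 3, where the γδ and NKT marker sum was also highest, and the summed level of 10 CD8 T and NK cell markers, of which 5 of 7 tested rose, was 69.5, 302 and 432 FPKM in SLE1.2.3 mice and 15.8 to 17.4 FPKM in Control mice. The part of other cell types in these differences was not tested.

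The list counts depended on single libraries, and in the order TIP30 partners, nuclear transport, vacuolar ATPase, Bcam partners and Bcam relatives they were as follows. Without SLE1.2.3 mouse 1 they were 8, 1, 2, 7 and 8, without mouse 2 0, 0, 0, 0 and 1, and without mouse 3 1, 2, 0, 3 and 4. Without Control mouse 1 they were 1, 0, 0, 0 and 1, without mouse 2 0, 0, 0, 0 and 1, and without mouse 3 0, 0, 0, 1 and 1. Alcam passed in each of these.

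**Figure D4:**
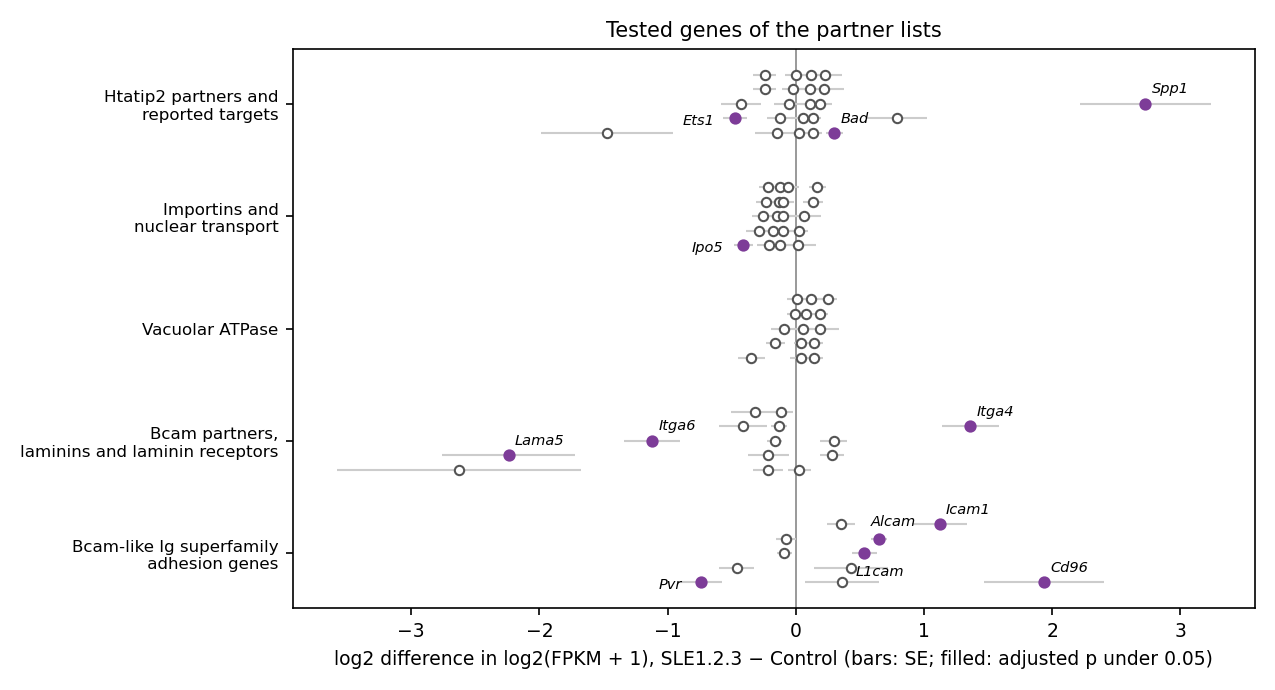
The log2(FPKM + 1) difference of SLE1.2.3 minus Control for each tested gene of the 5 lists around Htatip2 and Bcam, with SE as bars and filled points for an adjusted p under 0.05. The TIP30 partners, nuclear transport genes and ATPase subunits hold 4 genes that passed, from Ets1 at -0.48 to Spp1 at 2.73, while the lists around Bcam spread from Lama5 at -2.24 to Cd96 at 1.94 among the genes that passed.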

How the data were processed

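The authors deposited FPKM values for 33300 features in 6 libraries. The submitters' processing notes list STAR 2.7.3a, featureCounts 2.0.0, cutadapt 2.10, FastQC 0.11.9, DESeq2 1.24.0 and the build mm10 without saying what each did. Strand setting and annotation release: not given in the sources used here. In each library the deposited FPKM values times length in kb sum to 1000000, so levels are relative to assigned reads. GENCODE M21 holds 32630 of the IDs in the same version. Spreadsheet dates had replaced 24 symbols, which were restored from the ID.

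Reads were recovered from the FPKM steps: among values under 30 reads in features shorter than 2 kb whose rounding is worth under 0.05 of a read, 100.0% came out whole within 0.15 of a read. In longer genes the 3 decimals deposited make reads less certain. PCR copies are not independent molecules, so intervals and floors cover counting error only. Features with a mean of at least 1 FPKM were tested on log2(FPKM + 1), which understates the change of low genes, with limma 3.58.1 in R 4.3.3 (empirical Bayes with trend, no covariate). Adjustment was by Benjamini-Hochberg over all 11378 tested genes, at 0.05, and the p-values reflect only the variation among these mice. A count model was foreseen for raw counts only and was not the test here. Each script that fits many genes was tested on simulated data. Similar transcripts were sought with blastn 2.17.0.

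The genes named are Htatip2, Bcam and Gm31597, neighbours within 500 kb that passed, the nearest tested gene on each side, the 10 features most like the members by pattern and the 10 of the mirror pattern, and up to 4 called genes per list (up to 2 where 0 passed). Some features that these rules take are not reported here. Members and lists were chosen with earlier results of these data known. Nav2, Nectin2, Sult2b1, Gm45114, Gm26600, Sbsn, Zfp976, Kpnb1, Cd96 and the genes named from the lower limit were chosen after their values were seen. Alternatives were another pseudocount, filter, scaling, variance setting, window or limit, the mouse number as a block, and each mouse left out. Limma voom on recovered reads, a fit without both SLE1.2.3 mouse 2 and mouse 3, and the limits of 0.5 FPKM and of 0.1 FPKM with 20 reads were added after seeing the data.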

Additional observations from a re-analysis of the deposited data

How the results depend on the processing

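The log2 differences of the members kept their sign in all alternatives run. With a pseudocount of 0.1 they were -5.92 for Htatip2, -5.45 for Bcam and -5.34 for Gm31597, and without both SLE1.2.3 mouse 2 and mouse 3 Bcam was at -2.92. Leaving out 1 mouse gave -3.75 to -3.61 for Htatip2, -3.22 to -3.05 for Bcam and -2.59 to -2.36 for Gm31597. The pattern count of 5 became 3 at 2%, 11 from 0.5 FPKM and 11 from 0.1 FPKM with 20 reads. Calls were less stable, and the cause was not tested. Of all tested genes 1733 passed, against 798 with no filter, 1129 at a mean of 5 FPKM, 665 without both mice (1 SLE1.2.3 library, assumed to vary like the others) and 240 to 3701 with 1 mouse left out. The 17 neighbours became 11 at 5 FPKM, 6 without both mice, 1 to 23 with 1 mouse left out, 31 within 1 Mb and 35 within 2 Mb. The TIP30 partners' 3 became 1 with no filter, without both mice and with limma voom, and 0 to 8 with 1 mouse left out. The nuclear transport count of 1 became 0 with a common FPKM sum, 3 with quantiles and 0 to 2 with 1 mouse left out. The ATPase count of 0 became 1 with quantiles and 0 to 2 with 1 mouse left out. The Bcam partners' 3 became 0 with no filter and without both mice, and 0 to 7 with 1 mouse left out. The Bcam relatives' 5 became 2 with no filter, 1 without both mice, and 1 to 8 with 1 mouse left out. Over the named single genes and their alternatives, 642 values kept their side of the threshold and sign, 177 lost the call, 6 gained one and 4 reversed. Lmtk3 reversed to 0.057 without both mice, and Rpl18 to 0.019 with a common FPKM sum and 0.19 without both mice, with -0.24 to 0.058 when 1 mouse was left out. The common sum moved the median of all tested genes to 0.11, where it was 0.01.

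Whether mouse numbers pair the samples could not be told from the values: same-numbered libraries correlated at -0.004, 0.1001 and 0.0914. SLE1.2.3 mouse 1 correlated best with Control mouse 2, at 0.125. SLE1.2.3 mouse 2 and mouse 3 each correlated best with the Control mouse of the same number. With the number as a replicate block 940 genes passed, among them 10 neighbours, 1 TIP30 partner, 0 nuclear transport genes and 3 Bcam relatives. Depth limits Gm31597 most, with 2 SLE1.2.3 reads in all.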

Other observations

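5 further features had the near-0 pattern of Htatip2, Bcam and Gm31597 at low level and are given as values; they were chosen after their values were seen. Apoa2, an apolipoprotein gene of chromosome 1, had 1 read in SLE1.2.3 cells and 74 in Control cells. Enah, an actin regulator gene also on chromosome 1, had 92 reads in SLE1.2.3 cells and 3117 in Control cells. The flagellin receptor gene Tlr5, on the same chromosome, had 0, 0.003 and 0 FPKM in SLE1.2.3 mice and 0.34, 0.246 and 0.232 FPKM in Control mice. The small RNA features Gm22211 and Gm23251 of chromosome 7 had 0 reads in SLE1.2.3 cells and 17 and 12 in Control cells.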
